A study of Mus musculus with 4 samples.

Results

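The 40 genes described here are the enzymes of glycolysis, the carriers of glucose and lactate, the regulators that set glycolytic flux, the oxygen sensors of the hypoxia-inducible factor (HIF) pathway and a group of other HIF targets. Each was taken by its symbol in the deposited table, and all 40 were found among the 51905 genes. They comprise 17 glycolytic enzymes, 4 transporters, 3 flux regulators, 4 HIF subunits and prolyl hydroxylases, and 12 other HIF targets. CT26 and MC38 are mouse colorectal cancer cell lines, and the cells carried 1 of 2 lentiviral hairpins, shmaurka-1, which targets the mitotic kinase Aurora-A encoded by Aurka, or the control hairpin shGFP. The 4 conditions were CT26 shGFP, CT26 shmaurka-1, MC38 shGFP and MC38 shmaurka-1, all labelled wild type and of colon origin, with 1 library each from total RNA collected 48 h after seeding. Every library therefore came from infected cells, and the knockdown rests on 1 hairpin. Infected cells had been selected with puromycin and subcultured before use. CT26 was grown in RPMI medium and MC38 in high glucose DMEM, so the line and its medium cannot be told apart.

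Glycolysis splits glucose into pyruvate, and lactate dehydrogenase turns pyruvate into lactate so that the pathway can go on when respiration is limited. HIF is a transcription factor whose alpha subunit is hydroxylated by the EGLN enzymes and degraded while oxygen is present. When oxygen falls, the alpha subunit persists, pairs with Arnt and binds short hypoxia-response motifs near genes of glucose use, vessel growth and mitochondrial turnover. Most glycolytic genes are HIF targets but are also driven by growth signals, whereas genes such as Car9, Ankrd37, Egln3 and Bnip3 report more directly on HIF. A dense or poorly oxygenated culture is thus a known source of change in these genes, and the comparison of glycolytic enzymes with other HIF targets addresses whether the knockdown and control cultures differed in that way.

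The libraries held 22207768 to 23752267 fragments, and the deepest was 1.07 times the shallowest. In CT26 the control library had 5724 fragments of Aurka and the knockdown library 1093, in MC38 they had 2300 and 413 (log2 -2.27 and -2.44), so both knockdown libraries matched their label. Of the colon epithelial markers, Epcam had at most 1 fragment and Cdh1 at most 6 in every library, although MC38 is labelled as an epithelial cell. The summed FPKM of 10 epithelial markers was 42.7 to 43.0 in CT26, mostly Krt18, and 0.964 to 1.29 in MC38. Within the steady CT26 sum, Krt20 fell from 8.45 FPKM in the control library to 4.41 in the knockdown library (434 to 205 fragments). Krt18 moved the other way there, from 33.7 to 37.4 FPKM. Cdx2 fell from 14 to 3 fragments in CT26, whereas Krt19 rose from 6 to 13. In MC38, Krt20 reached at most 2 fragments and Cdx2 stayed at 0. The summed FPKM of 10 fibroblast markers was 525 to 548 in CT26 and 296 to 347 in MC38, mostly Vim (357 to 383 and 241 to 291). Col1a1 and Pdgfrb were present in both lines. Over all libraries Acta2 had 18 to 44 fragments, Lum 22 to 45 and Thy1 only 1 to 5. Of 6 leukocyte markers, Ptprc and Cd3e had at most 3 fragments, and their summed FPKM was 3.41 to 4.32 in CT26 and 4.89 to 5.91 in MC38, mostly Cd68. The summed FPKM of 3 endothelial markers was 0.466 with shGFP and 0.578 with shmaurka-1 in CT26, and 1.66 and 0.790 in MC38. The part of these markers in the members' values was not tested.

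Many fragments of the Gapdh family lay on the rows of copies elsewhere in the genome. Gapdh encodes glyceraldehyde-3-phosphate dehydrogenase, the enzyme most often used as a reference in expression assays. A search with the coding sequence found 155 annotated copies with at least 90% identity over at least 50% of its length. In CT26 the Gapdh row itself held 115 fragments with shGFP and 275 with shmaurka-1, whereas the copy Gm13394, a processed pseudogene at chr2:28926948-29055066 on GRCm38 (a locus the files share with Cfap77), held 17438 and 15554. In MC38 the order was the opposite, with 5628 and 4862 fragments on Gapdh and 102 and 97 on Gm13394. The coding sequences of Gapdh and Gm13394 were aligned over 999 bases and differed by the substitution A346C, counted from the first base of the coding sequence. The stretch around it is shown because this is the only coding base at which the 2 annotated sequences differ, and the capital marks it. Both sequences are 5′ to 3′ from GENCODE transcripts of the GRCm39 build.
Gapdh: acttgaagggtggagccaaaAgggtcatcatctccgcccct
Gm13394: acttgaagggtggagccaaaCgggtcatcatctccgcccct

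A further copy, Gm7336 on chromosome 7, had no difference from Gapdh in the 999 bases and held 386, 389, 1770 and 1775 fragments in the order CT26 shGFP, CT26 shmaurka-1, MC38 shGFP and MC38 shmaurka-1. All copies together took 99.4% and 98.4% of the Gapdh family's fragments in CT26 and 34.8% and 39.4% in MC38. In CT26 the Gapdh row thus held under 2% of the family, and the changes of Gapdh described below are also given with the copies added. Eno1, which encodes the main enolase, also had fragments on the rows of copies, as a smaller share. The copy Gm4735 at chr2:80837140-80838442 held 7623, 7325, 676 and 854 fragments, and Eno1b, a further enolase gene, held 6844, 6985, 30 and 49. Copies took 28.7% and 31.4% of the Eno1 family's fragments in CT26 and 2.63% and 2.70% in MC38. Gm4735 differed from Eno1 by 5 substitutions over 1302 coding bases, and the stretch around the first of them, T726C, is shown for comparison.
Eno1: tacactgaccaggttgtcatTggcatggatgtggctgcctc
Gm4735: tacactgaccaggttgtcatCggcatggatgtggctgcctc

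Of the other 38 members, Bnip3l had 6.86% to 9.29% of its fragments on a copy and Bnip3 1.81% to 5.06%. For each of the rest the share was under 3% in every library. In 20 of the 40 members the locus given in the files is shared with other genes, whose reads may be hard to assign. Why the fragments of a family lay on different rows in the 2 lines was not tested.

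**Figure D1:**
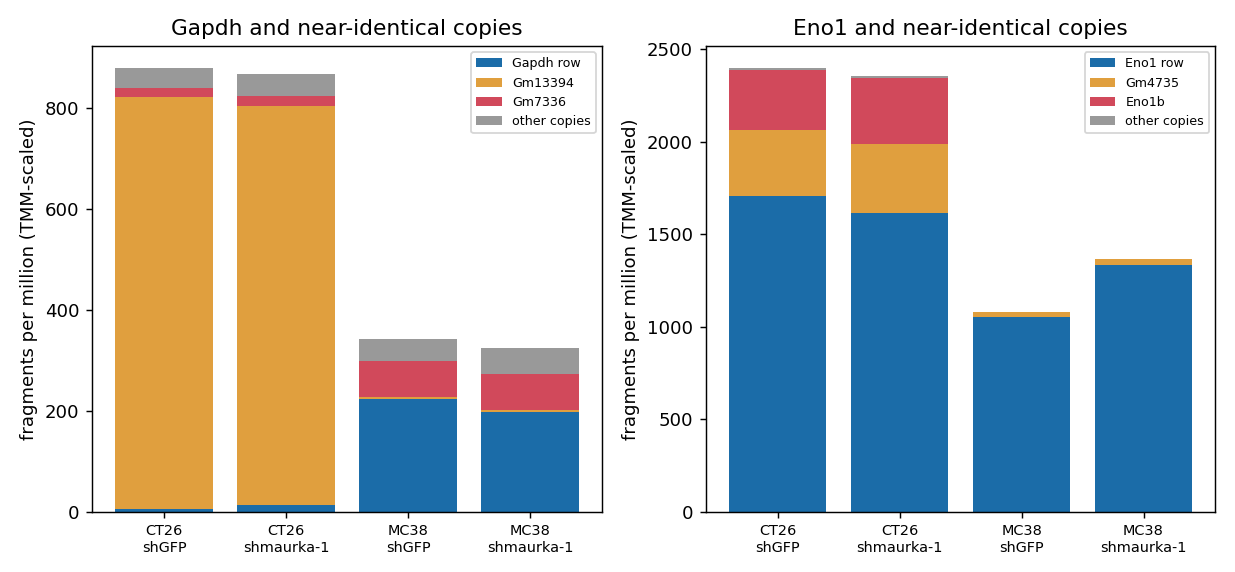
Fragments scaled to a common library size (CPM with edgeR's TMM factors) on the Gapdh row (left) or the Eno1 row (right) and on their near-identical copies in each of the 4 libraries, as stacked bars. In CT26 the Gapdh family lies almost wholly on Gm13394, and in MC38 Gapdh itself is the largest part.

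The promoters of the members were searched for the core hypoxia-response motifs ACGTG and GCGTG on both strands, in RefSeq windows on GRCm38.p6 from 250 bases before to 50 bases after each start. Windows were found for 36 of the 40 members, 52 in all, and not for Slc2a3, Epas1, Bnip3l and Ndrg1. Of these 52 windows, 53.8% held ACGTG, against 19.6% of all 32851 promoters. GCGTG was in 57.7% of them against 32.4%, and at least one of the motifs in 78.8% against 43.8%. The 6-letter motif CACGTG, which contains ACGTG and is also read by other factors such as Myc, was in 11.5% against 7.15%. A match is only a description of the letters. The 250 bases before the start are printed for Ldha, Pdk1 and Egln3, because these genes show 3 different outcomes below (higher with the knockdown in MC38 only, higher in both lines, lower in MC38). Ldha and Pdk1 each have 2 start windows, and the one with more motifs is shown. Before the start not shown, Ldha has no ACGTG and 1 GCGTG, and Pdk1 has neither. Capitals mark the motifs on either strand.
Ldha, chr7:46845554-46845803, plus strand: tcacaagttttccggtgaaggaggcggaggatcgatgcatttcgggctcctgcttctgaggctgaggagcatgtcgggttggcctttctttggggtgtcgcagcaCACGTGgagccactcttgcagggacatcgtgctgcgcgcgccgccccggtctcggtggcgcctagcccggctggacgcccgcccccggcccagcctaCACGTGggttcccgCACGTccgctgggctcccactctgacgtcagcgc
Pdk1, chr2:71872974-71873223, plus strand: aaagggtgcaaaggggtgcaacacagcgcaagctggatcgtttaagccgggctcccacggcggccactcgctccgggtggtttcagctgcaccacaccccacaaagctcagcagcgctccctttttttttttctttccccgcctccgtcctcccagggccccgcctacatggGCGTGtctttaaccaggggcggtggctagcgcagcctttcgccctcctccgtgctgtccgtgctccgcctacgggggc
Egln3, chr12:54203875-54204124, minus strand: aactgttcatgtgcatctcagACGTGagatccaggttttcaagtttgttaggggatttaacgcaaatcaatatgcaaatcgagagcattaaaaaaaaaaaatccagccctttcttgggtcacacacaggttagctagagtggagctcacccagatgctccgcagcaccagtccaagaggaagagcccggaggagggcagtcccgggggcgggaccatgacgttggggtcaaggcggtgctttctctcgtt

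The Ldha stretch holds 5 matches to ACGTG, of which 4 are the pairs formed by the palindrome CACGTG. The Pdk1 stretch holds 1 match to GCGTG, and the Egln3 stretch 1 match to ACGTG.

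Most of the pathway was highly expressed in all libraries. By FPKM, a level per transcript length, Pkm, the pyruvate kinase gene, stood at 752 and 773 in CT26 and 607 and 736 in MC38 (shGFP and shmaurka-1 in each). Ldha, which makes the lactate dehydrogenase subunit that favours lactate, stood at 987 and 927 in CT26 and 411 and 483 in MC38. Eno1 had 1115 and 1044 in CT26 and 473 and 609 in MC38. At the other end, Epas1, which encodes the HIF-2α subunit, was between 0.085 and 0.124 FPKM in every library, and Hif1a, which encodes HIF-1α, between 68.8 and 94.2 FPKM. Egln1, the main oxygen-sensing prolyl hydroxylase, stood at 14.4 to 19.6 FPKM.

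**Figure D2:**
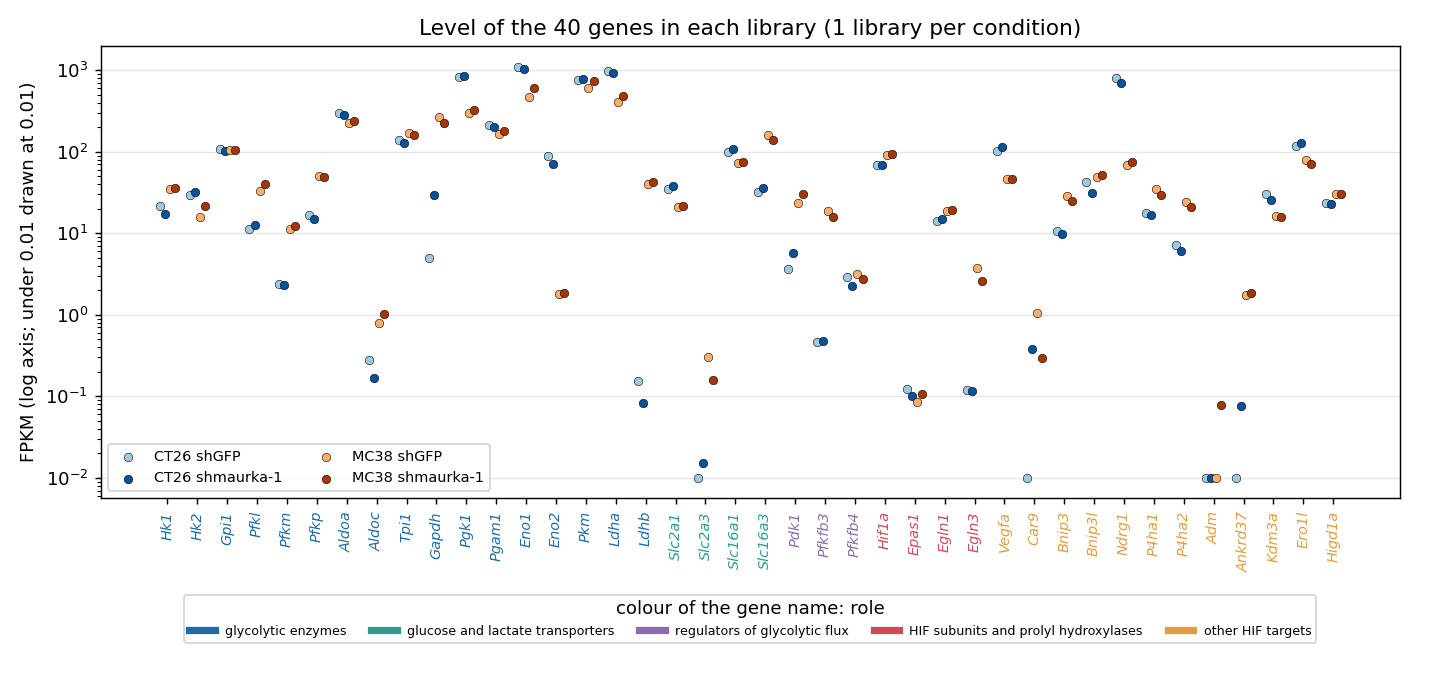
FPKM of the 40 genes in each of the 4 libraries, on a log axis and ordered by role. Levels differ more between the lines than between shGFP and shmaurka-1 for Eno2, Ldhb, Pfkfb3, Pdk1 and Ndrg1.

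Of the 40 genes, 33 averaged 10 or more counts in CT26 and also in MC38 and entered the comparisons, as did 11928 genes in all. The 7 that did not were Slc2a3, Aldoc, Ldhb, Egln3, Car9, Adm and Ankrd37, and all 7 had more fragments in MC38. More genes of any kind were also detected there, with 20372 and 20218 at nonzero counts (shGFP and shmaurka-1) against 18404 and 17892 in CT26. Adm, the vasodilator peptide adrenomedullin, had 3 fragments in MC38 shmaurka-1 and none elsewhere, too few to be told from 0. A count of 0 here allows up to 3 fragments, or 0.126 to 0.135 CPM (fragments scaled to a common library size), which covers counting error only.

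Within each line, the knockdown library was set against its control as a log2 fold change, with a 95% interval that covers counting error only, because 1 library per condition leaves no replicate error. Of the 33 members past the filter, none but the Gapdh row passed the fold thresholds in either line. As the cells were sequenced in bulk, a change in the share of some cells and a change of RNA per cell cannot be told apart. Among all genes compared, 3.20% were over 1.5-fold higher and 2.57% under 0.6-fold in CT26, the thresholds the study used. Of the 33 members, 1 was over 1.5-fold in CT26, which was the Gapdh row, and none was under 0.6-fold. In MC38 the shares of all genes were 2.47% and 1.03%, and no member was past either threshold. The counting interval lay above no change for 8 members and below it for 13 in CT26, where the shares of all genes were 21.8% and 21.4%, and above for 7 with the copies of Gapdh counted. In MC38 it lay above for 12 and below for 7, where the shares were 22.7% and 22.3%. Members are more deeply counted than most genes, with a median of 2451 counts against 829 over all genes compared, and intervals narrow with depth.

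The glycolytic enzymes leaned in opposite directions in the lines. In CT26 the median log2 fold change of the 15 enzymes that passed the filter was -0.08, with 4 above 0 and 11 below, and in MC38 it was 0.11, with 11 above and 4 below. With the copies counted, 3 lay above and 12 below in CT26, and 12 above and 3 below in MC38. The 9 other HIF targets that passed had medians of -0.10 in CT26 (2 above 0, 7 below) and -0.05 in MC38 (4 above, 5 below). Over all 11928 genes the medians were -0.01 and -0.00, with 49.2% and 49.9% above 0. In CT26, then, the medians of the enzymes and the other targets lay side by side. In MC38 the median of the enzymes was above 0 and that of the other targets slightly below, with genes on both sides of 0 in each group. Without Gapdh the enzyme medians were -0.08 and 0.11. The members are not replicates of a condition, so no test was run on these medians. The counting intervals of the 15 enzymes lay above no change for 4 and below for 9 in CT26, against 21.8% and 21.4% of all genes, and 3 were above once the copies of Gapdh were counted. In MC38 they lay above for 8 and below for 2, against 22.7% and 22.3%, with or without the copies.

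**Figure D3:**
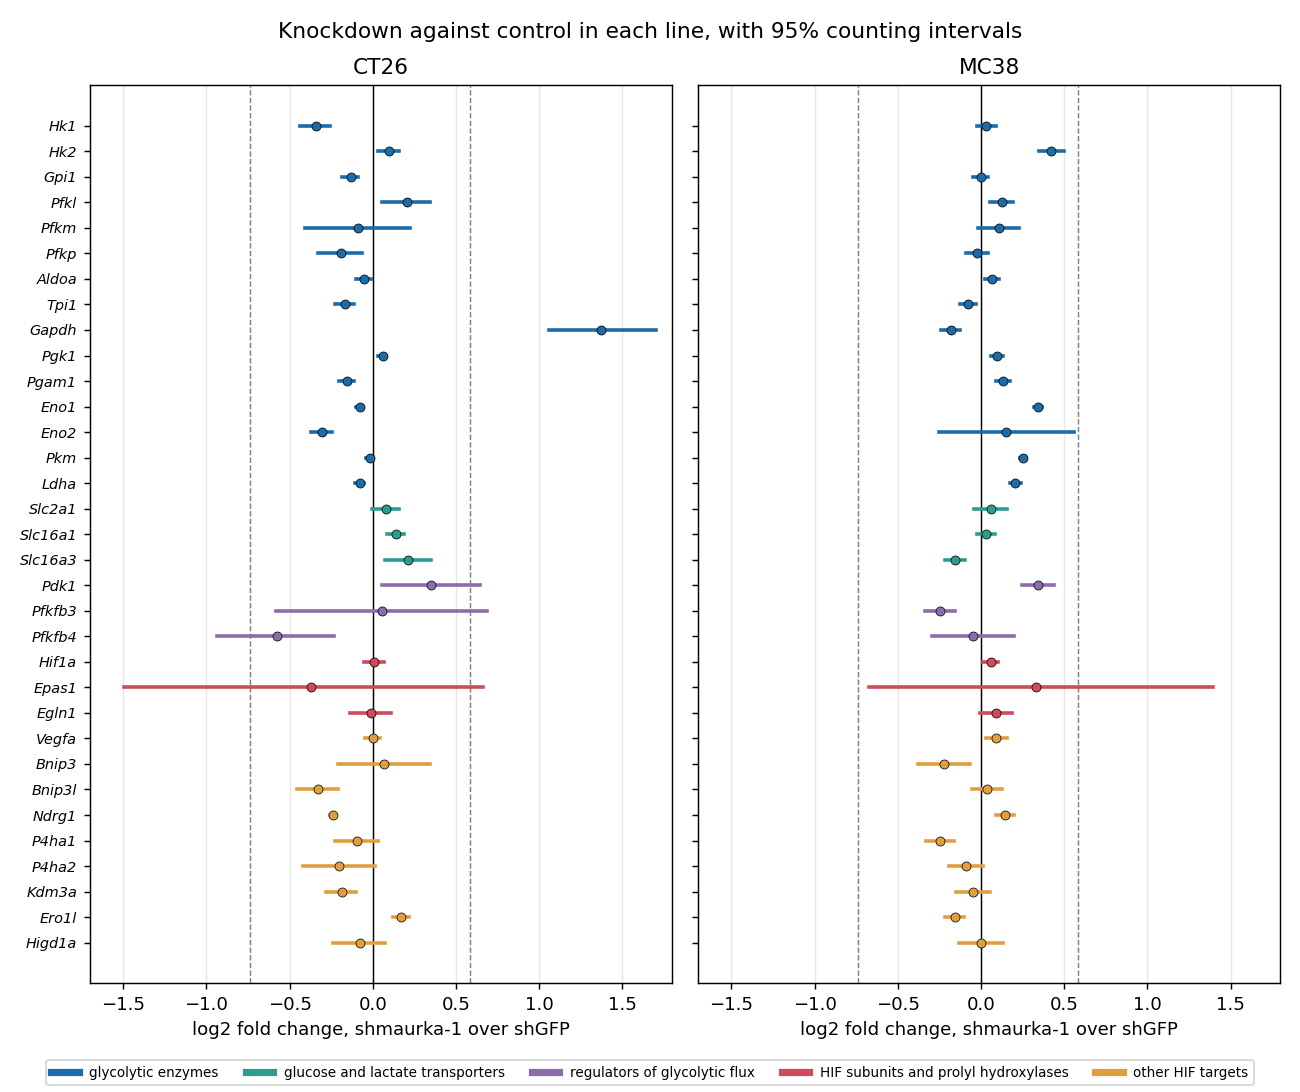
Log2 fold change of the knockdown over the control library for the 33 members past the filter, in CT26 (left) and MC38 (right). Bars are 95% counting intervals and dashed lines mark 1.5-fold and 0.6-fold. Apart from the Gapdh row in CT26 every point lies between the dashed lines.

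Hexokinase catalyses the entry step, and Hk2 is the inducible form. Hk2 had 3884 and 3821 fragments in CT26, which after scaling to library size is 0.10 on the log2 scale (interval 0.03 to 0.16), and 2514 and 3303 in MC38 (0.42, 0.35 to 0.50). Hk1, the constitutive form, had 2383 and 1727 fragments in CT26 (-0.34, -0.44 to -0.26) and 4749 and 4761 in MC38 (0.03, -0.03 to 0.09). Both lines thus held a larger share of Hk2 with the knockdown. By FPKM, Hk2 made up 58.0% of the hexokinase pair with shGFP and 65.3% with shmaurka-1 in CT26, and 30.8% and 37.6% in MC38.

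Among the enzymes of the upper part of the pathway, Gpi1 (glucose-6-phosphate isomerase) had 7661 and 6428 fragments in CT26 and 8636 and 8454 in MC38, so that the knockdown stood at -0.13 in CT26 and near 0 in MC38. Of the phosphofructokinase genes, Pfkl, the liver type, had 777 and 823 fragments in CT26 (0.20, 0.06 to 0.35) and 3089 and 3298 in MC38 (0.12, 0.05 to 0.19). Pfkp, the platelet type, had 1050 and 845 in CT26 (-0.19, -0.33 to -0.06) and 3892 and 3754 in MC38 (-0.02, -0.09 to 0.04). Pfkm, the muscle type, had intervals spanning no change in both lines, with 184 and 159 fragments in CT26 and 1044 and 1101 in MC38. Aldoa, the main aldolase, had 8019 and 7109 in CT26 (-0.05, -0.10 to -0.01) and 9524 and 9779 in MC38 (0.07, 0.03 to 0.11). Tpi1, triose-phosphate isomerase, was the member with both intervals below no change, at 5135 and 4206 fragments in CT26 (-0.17, -0.23 to -0.11) and 7342 and 6823 in MC38 (-0.08, -0.12 to -0.03).

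In the lower part of the pathway Eno1, Pkm, Ldha and Pgam1 were each higher with the knockdown in MC38 and at or below no change in CT26. Eno1 had 36484 and 31771 fragments in CT26 (-0.08, -0.10 to -0.06) and 26440 and 32842 in MC38 (0.34, 0.32 to 0.37). With the copies added these values were -0.03 (-0.04 to -0.01) and 0.34 (0.32 to 0.37). Pkm had 41155 and 37403 fragments in CT26 (-0.02, -0.04 to 0.00) and 39213 and 45821 in MC38 (0.25, 0.23 to 0.27). The sizes are small, and without replicate libraries it is not known how far 2 cultures of 1 condition would differ.

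Ldha had 27964 and 24376 fragments in CT26 (-0.08, -0.10 to -0.05) and 14129 and 15976 in MC38 (0.21, 0.17 to 0.24). Pgam1, phosphoglycerate mutase, had 9447 and 7797 in CT26 (-0.16, -0.20 to -0.11) and 8685 and 9345 in MC38 (0.14, 0.09 to 0.18). Pgk1, phosphoglycerate kinase, was above no change in both lines, by 0.06 (0.03 to 0.08) in CT26 and 0.10 (0.06 to 0.13) in MC38. Eno2, the neuronal enolase, had 4773 and 3547 fragments in CT26 (-0.31, -0.37 to -0.25) but only 101 and 110 in MC38 (0.15, -0.25 to 0.56).

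On the Gapdh row the knockdown stood at 1.37 (1.06 to 1.70) in CT26 and at -0.18 (-0.24 to -0.13) in MC38. With all copies added, the family held 18771 and 17057 fragments in CT26 and 8636 and 8019 in MC38, and the log2 fold changes were -0.02 (-0.05 to 0.01) and -0.08 (-0.12 to -0.03). The CT26 rise was thus lost when the copies were counted, with an interval that spanned no change, and no member was then over 1.5-fold.

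The transporters did not share a direction in MC38. Slc2a1, which encodes the main glucose carrier, had 2388 and 2318 fragments in CT26 and 1729 and 1763 in MC38, with intervals that spanned no change in both (0.08 and 0.06). Slc16a1, a lactate carrier, had 6130 and 6212 in CT26 (0.14, 0.09 to 0.19) and 5424 and 5432 in MC38 (0.03, -0.02 to 0.09). Slc16a3, the lactate exporter of strongly glycolytic cells, had 826 and 881 in CT26 (0.21, 0.07 to 0.35) and 5042 and 4436 in MC38 (-0.16, -0.21 to -0.10).

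Of the flux regulators, Pdk1, a kinase that switches off pyruvate dehydrogenase and so keeps pyruvate from the mitochondria, was higher with the knockdown in both lines. It had 180 and 211 fragments in CT26 (0.35, 0.05 to 0.64) and 1603 and 1995 in MC38 (0.34, 0.25 to 0.44). On FPKM values with 1 added, Pdk1 stood at 0.53 in CT26 and 0.37 in MC38. Pfkfb3 and Pfkfb4 make and remove the bisphosphate that activates phosphofructokinase. Pfkfb3 had 45 and 43 fragments in CT26 (0.05, -0.58 to 0.69) and 2190 and 1811 in MC38 (-0.24, -0.34 to -0.15). Pfkfb4 had 182 and 112 in CT26 (-0.58, -0.93 to -0.23) and 287 and 272 in MC38 (-0.05, -0.29 to 0.20).

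For the HIF subunits and sensors the fold changes were small. Hif1a had 4785 and 4428 fragments in CT26 (0.01, -0.05 to 0.07) and 7587 and 7739 in MC38 (0.06, 0.01 to 0.10), and Egln1 had 1146 and 1045 in CT26 (-0.01, -0.14 to 0.11) and 1781 and 1859 in MC38 (0.09, -0.00 to 0.19). Epas1 had 14 to 20 fragments in every library. HIF activity is set mainly by the stability of its protein, which was not measured. Egln3, a prolyl hydroxylase gene that is itself a sensitive HIF target, had 7 and 6 fragments in CT26, while in MC38 it had 261 with shGFP and 180 with shmaurka-1 (-0.50, -0.79 to -0.23).

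The other HIF targets went no single way. Vegfa, the vessel growth factor, had 8156 and 7501 fragments in CT26 (-0.00, -0.05 to 0.04) and 3811 and 3983 in MC38 (0.09, 0.03 to 0.16). On FPKM values with 1 added, Vegfa was 0.14 in CT26 and 0.01 in MC38. Ndrg1, a stress-responsive gene, had 51940 and 40530 in CT26 (-0.24, -0.26 to -0.22) and 5228 and 5671 in MC38 (0.15, 0.09 to 0.20). Ero1l, an oxidase of disulfide formation, had 6570 and 6800 in CT26 (0.17, 0.12 to 0.22) and 5480 and 4813 in MC38 (-0.16, -0.21 to -0.10). Ndrg1 therefore had the signs of Eno1, Ldha and Pgam1 in both lines, and Ero1l those of Slc16a3.

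Bnip3 and Bnip3l encode receptors for the removal of mitochondria. Bnip3 had 225 and 217 fragments in CT26 (0.07, -0.21 to 0.34) and 752 and 632 in MC38 (-0.22, -0.38 to -0.07). Bnip3l had 1253 and 918 in CT26 (-0.33, -0.45 to -0.21) and 1974 and 1981 in MC38 (0.03, -0.06 to 0.12). P4ha1 and P4ha2 encode catalytic subunits of the collagen prolyl hydroxylase. P4ha1 had 1053 and 906 in CT26 (-0.10, -0.23 to 0.03) and 2560 and 2116 in MC38 (-0.25, -0.33 to -0.16), and P4ha2 had 404 and 323 in CT26 (-0.20, -0.42 to 0.01) and 1571 and 1446 in MC38 (-0.09, -0.19 to 0.01). All 4 of these P4ha values were below 0, and the interval excluded no change in 1 of them.

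Kdm3a, a histone demethylase, had 2237 and 1808 fragments in CT26 (-0.19, -0.28 to -0.10) and 1634 and 1550 in MC38 (-0.05, -0.15 to 0.05). Higd1a, a mitochondrial protein of low oxygen, had intervals spanning no change in both. Car9, the carbonic anhydrase often used as a marker of hypoxia, had 0 and 4 fragments in CT26 and 29 and 15 in MC38 (-0.87, -1.93 to 0.02). Ankrd37 had 0 and 1 in CT26 and 41 and 40 in MC38. In MC38 the intervals of Egln3, Bnip3, P4ha1 and Ero1l thus lay below no change and those of Vegfa and Ndrg1 above it. Those of Bnip3l, P4ha2, Kdm3a, Higd1a, Car9 and Ankrd37 spanned it. Of the 9 other HIF targets past the filter, 2 lay above and 3 below in MC38, against 22.7% and 22.3% of all genes. In CT26 they were 1 and 3, against 21.8% and 21.4%.

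Counted over both lines, 4 members had intervals above no change in each (Hk2, Pdk1, Pfkl and Pgk1), which is 12.1% of 33 against 8.49% of all genes, and 1 had both below (Tpi1), against 7.55%. At an average of 1000 or more counts in both lines the order turned, with both intervals above in 9.52% of the members and 16.4% of all genes. Opposite directions were the larger class. In 5 members the interval was below no change in CT26 and above it in MC38 (Aldoa, Eno1, Ldha, Ndrg1 and Pgam1), and in 3 it was the reverse (Ero1l, Gapdh and Slc16a3). These 8 are 24.2% of 33, against 7.41% of all genes, but the interval narrows with depth. Among the 4326 genes averaging 1000 or more counts in both lines the share was 12.9%, and it was 28.6% of the 21 members at that depth. With the copies of Gapdh counted, its CT26 interval spanned no change and 7 members were left. With 1 library per condition the difference between the lines could not be tested.

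**Figure D4:**
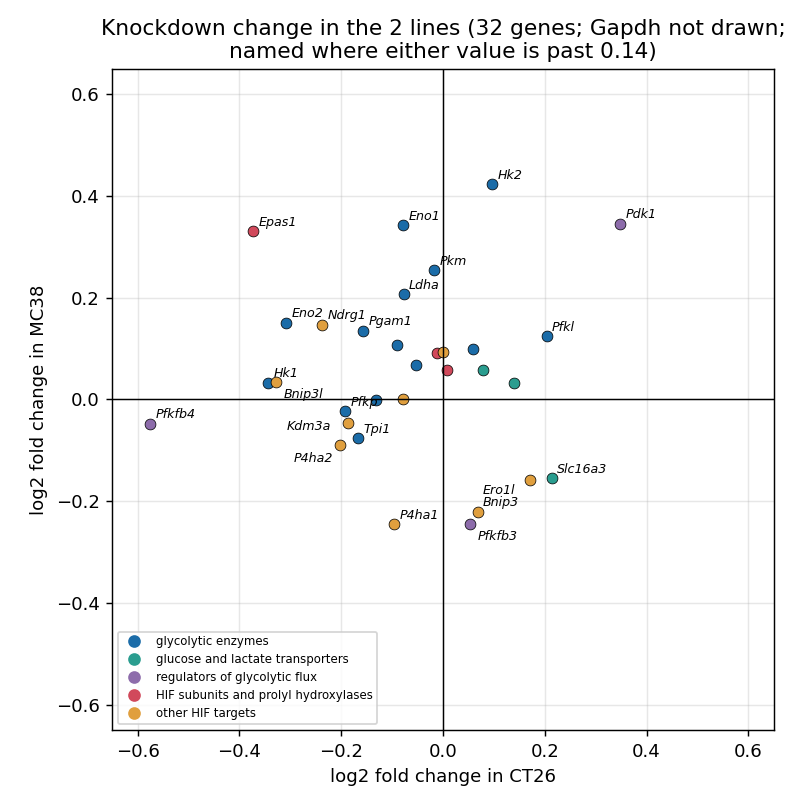
Log2 fold change of the knockdown in CT26 (horizontal) against MC38 (vertical) for 32 members, coloured by role, with Gapdh not drawn. Eno1, Ldha, Pgam1 and Ndrg1 lie at the upper left, Ero1l and Slc16a3 at the lower right, and Hk2, Pdk1 and Pfkl at the upper right.

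The mean change over CT26 and MC38 was tested as the hairpin term by quasi-likelihood in edgeR, with the line as a block. The 2 lines were the only replication of the knockdown, and the error rested on the spread over all genes. A gene could thus be called although its 2 lines went opposite ways. Of all genes, 2.79% were called at an adjusted p of 0.05 (1.67% higher, 1.12% lower), and with total-count scaling 1.32% were higher and 1.37% lower. None of the 33 members was called, and DESeq2 called none either. At an unadjusted p of 0.05 there were 3 members, where the share of all genes was 12.3%. These were the Gapdh row (log2 0.37 ± 0.12 (SE), adjusted p = 0.0534), Pdk1 (0.35 ± 0.13, adjusted p = 0.171) and Hk2 (0.26 ± 0.10, adjusted p = 0.180). Pdk1 and Hk2 were higher in 2 of 2 lines and Gapdh in 1 of 2. With the copies added the value for Gapdh was -0.05 with an adjusted p of 0.916 in edgeR, and the other settings gave 2.51e-04 (limma-trend) to 1.00 (DESeq2).

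Genes of the same pathways outside the 40 were compared in the same way. Of 26 further genes of glycolysis, pyruvate and the pentose phosphate pathway past the filter, edgeR called 1 higher and none lower. The shares of all genes were 1.67% and 1.12%. The gene called was Rpia, ribose-5-phosphate isomerase, with 393 and 544 fragments in CT26 (0.59) and 629 and 806 in MC38 (0.39). Its adjusted p in edgeR was 0.0244, and DESeq2 did not call it. The medians of the 26 were -0.04 in CT26 and 0.08 in MC38, the same signs as for the enzymes above. Their counting intervals lay above no change for 7 and below for 5 in CT26, against 21.8% and 21.4% of all genes. More of the enzymes lay below than above there. In MC38 the intervals of the 26 lay above for 10 and below for 5, against 22.7% and 22.3%. Of 8 further HIF pathway genes such as Arnt and Vhl none was called, with medians of 0.03 and -0.05.

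Among 23 further hypoxia-response genes the medians were -0.17 in CT26 and -0.10 in MC38, with 17 of 23 below 0 in each line. Over all genes 49.2% and 49.9% lay above 0. The counting interval lay below no change for 12 of the 23 in CT26 and 10 in MC38, against 21.4% and 22.3% of all genes, and above for 4 and 3. Over both lines edgeR called 2 lower, against 1.12% of all genes, and none higher. Bhlhe40, a transcriptional repressor induced by hypoxia whose locus 3 other genes share, had 6607 and 3288 fragments in CT26 (-0.89, -0.95 to -0.83) and 776 and 570 in MC38 (-0.41, -0.57 to -0.26), with an adjusted p of 1.52e-07 in edgeR and 0.0127 in DESeq2. Angptl4, an inhibitor of lipoprotein lipase and named here after its values were seen, had 519 and 272 in CT26 (-0.81, -1.03 to -0.60) and 19 and 16 in MC38 (-0.21, -1.27 to 0.82), with an adjusted p of 0.0434 in edgeR and 1.00 in DESeq2.

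Txnip, a brake on glucose uptake that the glucose sensor MondoA switches on and whose locus 1 other gene shares, fell in the test over both lines. It had 7157 and 5121 fragments in CT26 (-0.36, -0.42 to -0.31) and 6938 and 3472 in MC38 (-0.97, -1.03 to -0.91), with an adjusted p of 5.74e-09 in edgeR and 0.0146 in DESeq2. Arrdc4, the other classical MondoA target, had 2 to 8 fragments and could not be compared. Of the 4 genes in this list, Mlxip, which encodes MondoA and was named after its values were seen, was the other gene past the filter, at 0.01 in CT26 (-0.09 to 0.10) and 0.02 in MC38 (-0.07 to 0.11). Mlxipl had 4 to 6 fragments.

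Genes that follow culture density through YAP, 9 in the list, had medians of -0.00 in CT26 and -0.11 in MC38, where 7 lay below 0. Their counting intervals lay above no change for 4 and below for 4 in CT26, against 21.8% and 21.4% of all genes. In MC38 they lay above for 2 and below for 3, against 22.7% and 22.3%. None of the 9 was called, and the lowest adjusted p in edgeR was 0.0557. The 14 mitosis genes had a median of 0.70 in CT26, where all 14 lay above 0, and -0.11 in MC38, where 4 did. edgeR called 6 of the 14 higher over both lines, against 1.67% of all genes, and DESeq2 called none. Of these 6, 3 had an MC38 interval below no change (Aurkb, Kif20a and Top2a, the last named after its values were seen). Kif20a, a mitotic kinesin whose locus 2 other genes share, had 4373 and 7456 fragments in CT26 (0.89, 0.83 to 0.94) and 1997 and 1790 in MC38 (-0.13, -0.22 to -0.04). Aurkb, the chromosomal passenger kinase, had 1243 and 2073 in CT26 (0.86, 0.75 to 0.96) and 2034 and 1803 in MC38 (-0.14, -0.24 to -0.05). Kif11, a spindle motor, had 61 and 125 in CT26 (1.14, 0.70 to 1.62) and 221 and 226 in MC38 (0.06, -0.21 to 0.34) and was not called. Bub1b, a checkpoint kinase, had 2610 and 4505 fragments in CT26 (0.91) and 2810 and 2970 in MC38 (0.11). Ccnb1, the mitotic cyclin, had 3376 and 5270 in CT26 (0.76) and 2685 and 2117 in MC38 (-0.31). The mitosis genes and the glycolytic enzymes thus had medians of opposite sign in each line. The part of cell cycle position in the values of the members was not tested.

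The lines differed far more than the hairpins. edgeR's test of the line, with the hairpin as a block, called 73.3% of all genes (36.6% higher in CT26 and 36.7% higher in MC38) and 28 of the 33 members, 12 higher in CT26 and 16 higher in MC38. That was 84.8% of the members. DESeq2 called 62.4% of all genes and 27 members (81.8%). With total-count scaling 25.4% of all genes were higher in CT26 and 49.1% in MC38. DESeq2, with its own scaling, called 31.3% higher in CT26 and 31.1% in MC38. The even split thus held with TMM and with the DESeq2 scaling, but not with total counts. The difference was over 4-fold and called for 7 members against 11.3% of all genes. They were Eno2 and Ndrg1, higher in CT26, and Gapdh, Pfkfb3, Pdk1, Pfkm and Slc16a3, higher in MC38. With the copies counted the Gapdh family was 2.61-fold higher in CT26, so 6 members were over 4-fold, and 13 of the 28 called were higher in CT26 and 15 in MC38. The SE of the values below comes from this fit, in which the 2 libraries of a line stand as its replicates. The values also carry the scaling between lines, since total-count scaling in place of TMM moved every difference by -0.32, which turned Pgam1 from 0.21 to -0.10 and took the calls from Pgam1, Eno1 and Slc16a1. It also added 3, for Gpi1 (-0.31), Aldoa (-0.38) and Higd1a (-0.49), so that 28 members were called again. Pgam1 was also not called by DESeq2 (adjusted p = 0.141).

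Eno2 showed a wide gap. It stood at 89.2 and 71.9 FPKM in CT26 and 1.81 and 1.88 in MC38, a log2 difference of 5.57 ± 0.14 (SE). By FPKM it made up 7.41% and 6.44% of Eno1 and Eno2 together in CT26 against 0.381% and 0.307% in MC38. Computed as counts per exon length, with the exons of all annotated transcripts joined, it was 19.9% and 17.5% in CT26 and 0.720% and 0.632% in MC38. Such a joined length can exceed that of the transcript present. Eno1 was also higher in CT26, by 0.49 ± 0.09, and by 0.97 ± 0.09 with the copies added.

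Lactate dehydrogenase differed in its other subunit. Ldhb, which favours the return of lactate to pyruvate, had 4 and 2 fragments in CT26 and 1275 and 1326 in MC38, 357-fold higher in MC38 with a counting interval of 164-fold to 973-fold. Ldhb made up 8.88% and 8.17% of the FPKM of the Ldha and Ldhb pair in MC38 and 0.0155% and 0.00906% in CT26. Ldha was higher in CT26 by 1.08 ± 0.09, and Pgk1 by 1.36 ± 0.09.

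The phosphofructokinase genes were all higher in MC38, with log2 differences of -1.71 ± 0.11 for Pfkl, -1.74 ± 0.11 for Pfkp and -2.36 ± 0.15 for Pfkm (CT26 minus MC38). Pfkfb3, whose product feeds their activator, went the same way at 0.469 and 0.474 FPKM in CT26 against 18.9 and 15.9 in MC38, a log2 difference of -5.21 ± 0.17. Pdk1 stood at 3.61 and 5.67 FPKM in CT26 and 23.4 and 30.5 in MC38 (-2.91 ± 0.14). Hexokinase split by isozyme, with Hk2 higher in CT26 (0.70 ± 0.10) and Hk1 higher in MC38 (-0.94 ± 0.10).

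The lactate carriers split in the same manner. Slc16a1 was higher in CT26 by 0.47 ± 0.10 and Slc16a3 in MC38 (-2.19 ± 0.11). By FPKM, Slc16a3 made up 24.1% and 24.6% of the pair in CT26 and 69.0% and 65.5% in MC38. Computed as counts per joined exon length (11305 bases for Slc16a3 and 5286 for Slc16a1), its share was 5.93% and 6.22% in CT26 and 30.3% and 27.6% in MC38. The order of the lines stood, but the leading carrier in MC38 depended on which length was used. Slc2a1 was higher in CT26 (0.71 ± 0.11).

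**Figure D5:**
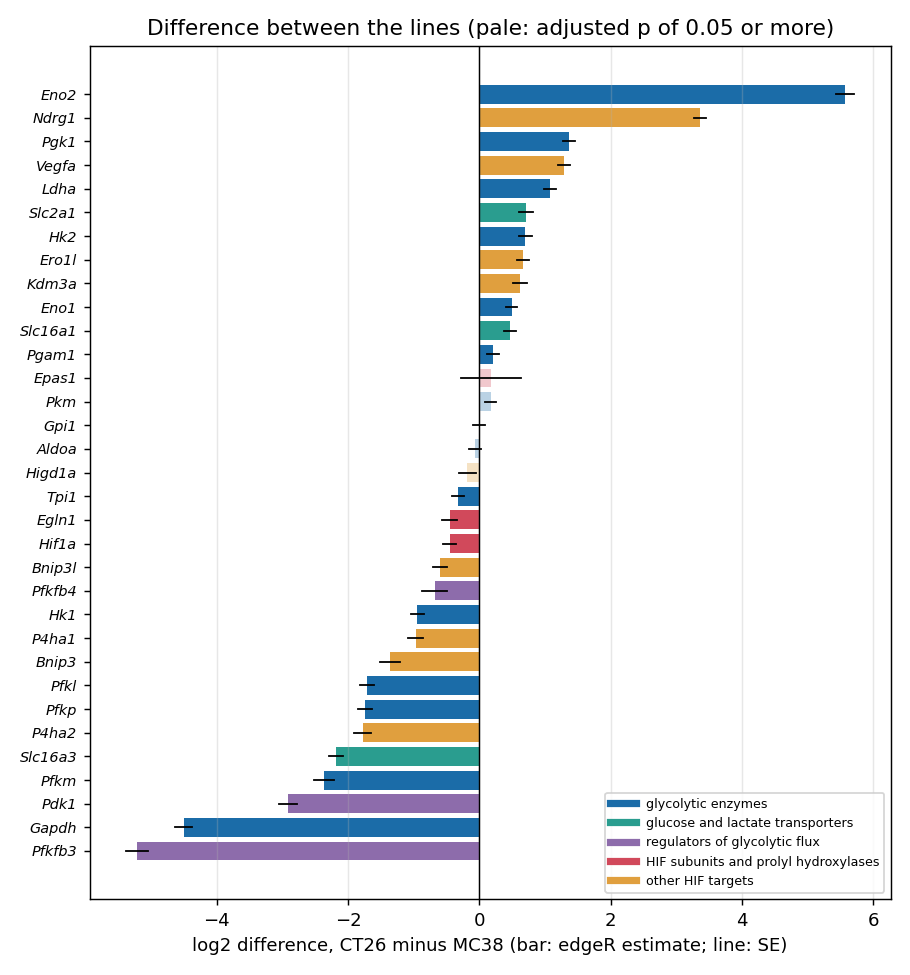
Log2 difference between the lines (CT26 minus MC38) for the 33 members, from edgeR, with SE as a line and pale bars for adjusted p of 0.05 or more. The Gapdh bar is that of its own row and lies on the other side of 0 when the copies are counted.

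For Gapdh the line comparison reversed with the counting. Its own row was lower in CT26 by a log2 difference of -4.50 ± 0.13, whereas the family with copies was higher in CT26 by 1.39 ± 0.09. The family stood at a TMM-scaled CPM of 879 and 868 in CT26 and 343 and 325 in MC38.

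The HIF targets lay on both sides of the comparison. Ndrg1 stood at 812 and 703 FPKM in CT26 and 68.4 and 75.1 in MC38 (3.36 ± 0.09), and Vegfa (1.29 ± 0.10), Ero1l (0.66 ± 0.10) and Kdm3a (0.62 ± 0.11) were higher in CT26 too. Bnip3 (-1.36 ± 0.15), Bnip3l (-0.60 ± 0.11), P4ha1 (-0.97 ± 0.11) and P4ha2 (-1.78 ± 0.13) were higher in MC38. Hif1a (-0.45 ± 0.10) and Egln1 (-0.45 ± 0.11) were higher in MC38 as well. The 5 members not called between the lines with TMM were Gpi1, Aldoa, Pkm, Epas1 and Higd1a.

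Several of the genes that most directly follow HIF were nearly silent in CT26. Egln3 was 27.9-fold higher in MC38 (interval 16.2-fold to 52.9-fold), from 13 fragments over both CT26 libraries and 441 over both MC38 libraries. Ankrd37 had 1 fragment in CT26 and 81 in MC38, a ratio of 66.7 with an interval of 11.6 to 2666. Car9 had 4 and 44, a ratio of 9.06 (3.30 to 34.7). Aldoc, the brain aldolase, had 14 and 101, a ratio of 5.94 (3.38 to 11.3), and Slc2a3, the neuronal glucose carrier, had 1 and 20, a ratio of 16.5 (2.63 to 682). These low counts in CT26 mean that its knockdown response could be read for few of the direct HIF reporters.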

How the data were processed

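RNA of 4 conditions was sequenced by strand-specific RNA-seq as 1 library each. The submitters' processing notes name Trimmomatic 0.36, HISAT2, Cufflinks 2.2.1 and Cuffdiff. Whether counting used strand is not given in the sources used here. The notes name GRCm39, but of 20051 genes that share their locus with no other, 99.7% overlap the RefSeq gene of that symbol on GRCm38.p6, so coordinates from the files are GRCm38. The authors deposited estimated counts that are not whole, scaled by a factor for each library. Dividing by the step between low values gave whole fragments for 96.6% to 97.3% of nonzero values within 0.05, and these were used for counting intervals and copies. The authors also deposited FPKM, which was used for levels between genes, isozyme shares and alternatives.

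Fold changes are ratios of TMM-scaled counts with 1 count added (edgeR 4.0.16, R 4.3.3), and their exact conditional binomial intervals compare 2 libraries at the 95% level and cover counting error only. Tests ran on rounded counts over the 11928 genes with an average of 10 or more in CT26 and in MC38, as edgeR quasi-likelihood tests on line and hairpin with Benjamini-Hochberg adjustment. That fit has 1 residual degree of freedom and an infinite prior, so its p-values rest on the spread over all genes. Each condition is 1 library, with no replicate culture here, so p-values measure only the spread between these libraries. DESeq2 1.42.0 and limma 3.58.1 were alternatives, and the tests were tested on simulated data. Copies were found with BLAST 2.17.0 against GENCODE transcripts of GRCm39, a search added after the data were seen. Python 3.11.15 with numpy 2.4.6, pandas 2.3.3 and scipy 1.17.1 was used otherwise. All members were named, and from each further list the genes over 1.5-fold or under 0.6-fold in a line with an average of at least 50 counts, at most 5, plus Txnip and Arrdc4. The members and lists were chosen with earlier results of these data known.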

Additional observations from a re-analysis of the deposited data

Results flagged for a closer look

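In 8 members the counting intervals of the 2 lines lay on opposite sides of no change, and whether the lines differ was not tested because each has 1 library per hairpin. The log2 fold changes in CT26 and MC38 were -0.053 and 0.068 for Aldoa, -0.16 and 0.14 for Pgam1, -0.079 and 0.34 for Eno1, -0.077 and 0.21 for Ldha, and -0.24 and 0.15 for Ndrg1. They were 0.21 and -0.16 for Slc16a3, 0.17 and -0.16 for Ero1l, and 1.37 and -0.18 for the Gapdh row, which was -0.019 and -0.078 with the copies added.

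Signal lay on rows outside the 40 genes. Gm13394, annotated as a processed pseudogene of Gapdh, had 17438 fragments in CT26 shGFP against 102 in MC38 shGFP, and Gm4735, a copy of Eno1, had 7623 against 676. Both are far above the 3 fragments that a count of 0 allows.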

How the results depend on the processing

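The medians of the glycolytic enzymes kept their sign under all alternatives run, lying between -0.10 and -0.08 in CT26 and between 0.08 and 0.14 in MC38, as did those of the other HIF targets, between -0.14 and -0.01 and between -0.07 and -0.05. Medians over 3 genes did not all keep it, and ranged from -0.11 to 0.06 in CT26 and -0.18 to 0.15 in MC38 for the flux regulators, from -0.16 to 0.03 in MC38 for the transporters, and from -0.19 to 0.00 in CT26 for the HIF subunits and prolyl hydroxylases. Counting the near-identical copies took Gapdh to -0.019 in CT26 (interval -0.05 to 0.01) and to -0.048 for the mean of both lines (edgeR adjusted p = 0.916). It reversed the Gapdh difference between the lines, to 1.39, and left 0 members over 1.5-fold in CT26. Without the replicate block, here the cell line, no gene was called for the mean change (0 of 11928, with 13 at an unadjusted p of 0.05). The mean value of Gapdh then turned to -0.12. Other settings moved the calls for the mean change from 333 genes to 29 (DESeq2) and 101 (average of at least 50 counts). Limma-trend called 1 member, the Gapdh row. Between the lines, Pgam1 was -0.10 with total-count scaling, and it was not called by DESeq2, with an average of at least 50 counts or without the block (adjusted p = 0.141, 0.0935 and 0.0926). On FPKM values with 1 added, Aurka was -2.16 in CT26 and -2.27 in MC38, the median of the HIF subunits and prolyl hydroxylases in MC38 was 0.058, and in CT26 203 genes were over 1.5-fold and 77 under 0.6-fold, in MC38 127 and 27. Among the members, Vegfa was then 0.14 in CT26 and 0.01 in MC38, Pfkl was 0.30 in MC38 and Pkm was 0.04 in CT26. With 0.1 added, 2 members were over 1.5-fold in CT26, the Gapdh row (log2 2.55) and Pdk1 (0.64). With an average of at least 50 counts, the numbers of genes over 1.5-fold and under 0.6-fold were 177 and 80 in CT26 and 93 and 31 in MC38. With no filter on low counts they were 2595 and 2981 in CT26 and 3076 and 2841 in MC38, with 5 members over 1.5-fold in CT26 and 1 over 1.5-fold and 1 under 0.6-fold in MC38. A lower threshold of 1/1.5 gave 512 genes in CT26 and 241 in MC38. The causes of these shifts were not tested, apart from the smaller or larger number of genes that a filter leaves. No setting could leave out a replicate, since each condition has 1 library. The paired analysis was the edgeR test itself, which compared the hairpins within the 2 lines. At this depth, counts of up to 3 fragments could not be told from 0.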
